A study of Mus musculus with 2 samples.

Results

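The NF-kB system was followed through 32 genes: 5 subunits of the factor, 7 feedback inhibitors, 3 nuclear IkB proteins, 3 signal proteins and 14 effectors. The members were taken by symbol from the 32285 listed mouse features, and all 32 had UMIs (unique molecular identifiers, the tags that count single transcripts) in both libraries. Single-cell RNA sequencing with droplet 3′ chemistry had been run on subcutaneous J558 allografts of female BALB/c mice. J558 is a mouse plasmacytoma line, labelled as a B lymphocyte, and 1 line in syngeneic hosts stands for the whole tumour model. The vehicle group received oral 0.5% methylcellulose, and the TAK-931 group received this CDC7 kinase inhibitor at 60 mg/kg once daily, both for 6 days. Each group was 1 library from 1 allograft, which the study used as a representative, so there was no spread between animals, no test was run, and every difference below is between libraries, not shown to be between treatments. Intervals are exact 95% intervals that cover counting error only (Poisson for levels, conditional binomial for ratios, Clopper-Pearson for shares of cells). Levels are UMIs scaled to 1000000 UMIs of a class (CPM), and paired values give the vehicle library first. A 3′ tag is counted per molecule, so no correction for gene length was made.

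NF-kB dimers are held in the cytoplasm by IkB proteins until signals from tumour necrosis factor, interleukin-1, Toll-like or antigen receptors lead to IkB degradation. The freed dimers switch on inflammatory and survival genes and also their own inhibitors, among them IkB-alpha (Nfkbia) and A20 (Tnfaip3), which end the response. A slower branch works through Nfkb2 and Relb and is active in maturing dendritic cells and in lymphoid tissue.

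The sites this loop is known to act through were looked for in RefSeq promoters (GRCm38.p6, 250 bases before to 50 after each start), which held 27 of the 32 members. Nfkb1, Relb, Nfkbiz, Map3k8 and Cd83 had no entry. The kB consensus, a 10-base motif searched on both strands, was matched in 11 of 27 members (40.7%), against 9.55% of 27025 genes in the table. By role, it was matched in 5 of 7 feedback inhibitors, 2 of 3 subunits, 2 of 2 nuclear IkB proteins, 0 of 2 signal proteins and 2 of 13 effectors. The windows below show a match with up to 15 bases on either side, with the match or run of overlapping matches in capitals. They are cut at the start, although the search ran over all 300 bases, and were chosen to set the inhibitors beside 2 subunits and both matched effectors.
Nfkbia, chr12:55492652-55492691, minus strand: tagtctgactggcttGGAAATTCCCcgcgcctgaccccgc
Nfkbie, chr17:45555579-45555618, plus strand: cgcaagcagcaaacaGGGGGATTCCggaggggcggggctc
Tnfaip3, chr10:19015511-19015550, minus strand: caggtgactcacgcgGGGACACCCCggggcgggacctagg
Tnfaip3, chr10:19015411-19015437, minus strand: actggaatttccatcGGAAATCCCCct
Tnip1, chr11:54962972-54963013, minus strand: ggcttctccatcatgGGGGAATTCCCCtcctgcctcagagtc
Tnip3, chr6:65590329-65590368, plus strand: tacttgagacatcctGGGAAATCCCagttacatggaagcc
Rel, chr11:23771036-23771076, minus strand: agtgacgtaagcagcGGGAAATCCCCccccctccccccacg
Nfkb2, chr19:46304683-46304723, plus strand: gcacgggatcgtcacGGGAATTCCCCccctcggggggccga
Ier3, chr17:35821606-35821645, plus strand: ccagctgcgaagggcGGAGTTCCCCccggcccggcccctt
Sod2, chr17:13007741-13007780, plus strand: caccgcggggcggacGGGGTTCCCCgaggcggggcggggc
The first base of the match lay 29 bases before the start in Nfkbia, 106 in Nfkbie, 125 and 12 in Tnfaip3, 58 in Tnip1, 54 in Tnip3, 92 in Rel, 39 in the Nfkb2 window shown, 92 in Ier3 and 83 in Sod2. Nfkb2 had 3 further matches before starts of its transcripts, at 11, 225 and 236 bases, and 1 that reached past a start. Of the 11 matched members, Bcl3 was the 1 whose match lay only past a start, and it is not shown. A match describes these letters only, and binding was not measured here.

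From vehicle and TAK-931 tumours came 4565 and 6558 barcodes with 144767193 and 77369283 UMIs, of which 3441 and 3488 barcodes were kept (over 2000 genes, under 15% mitochondrial UMIs), with median depths of 40504 and 15097 UMIs. The libraries shared 8 barcodes, of which 1 was among kept cells. Cells were classed one by one from marker lists (the gates are given with the processing), and class names stand for cells that resemble that type in these markers. The vehicle library gave 3010 J558-like, 209 monocyte/macrophage-like, 86 endothelial-like, 16 fibroblast-like and 14 T-like cells. The TAK-931 library gave 104, 1998, 212, 48 and 689. J558-like cells held 94.7% and 10.8% of all kept UMIs, and monocyte/macrophage-like cells 1.86% and 48.1%. From 0 to 60 vehicle and 4 to 178 TAK-931 cells of each of these 5 classes were 1 marker away from losing their class. Free RNA, estimated from markers of other lineages, was put at 0% to 6.94% of the UMIs of these classes in the vehicle library and 2.91% to 11.6% in the TAK-931 library. The 0% is that of the 14 T-like cells.

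Over all kept cells every member was higher in the TAK-931 library. At least 2-fold higher were 28 of 32 members and 0 were at least 2-fold lower, where 36.3% of 17213 features tested were that much higher and 19.1% that much lower. The median log2 ratio was 2.88 over the members and 0.30 over all features. Clec4e, the Mincle receptor of macrophages, had 2.15 and 86.0 CPM, and Ptgs2, the inducible cyclooxygenase, had 2.69 and 105 CPM. The 4 members under 2-fold were Rela, Traf2, Cflar and Sod2, of which J558-like cells gave 93.7%, 93.7%, 93.5% and 95.8% of the vehicle UMIs. For a comparison at fixed class levels, each class was held at its vehicle level and the classes were weighted by their TAK-931 shares of UMIs. This weighting gave a median log2 ratio of 2.50. The remainder had a median of 0.41 and ran from -0.19 for Bcl2a1b to 1.26 for Ptgs2, the only member with 2-fold or more remaining. Several vehicle levels in this split rest on few cells: 14 T-like, 5 NK-like, 5 conventional dendritic-like, 4 mural-like and 2 mature dendritic-like cells. The members were next compared within classes.

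**Figure D1:**
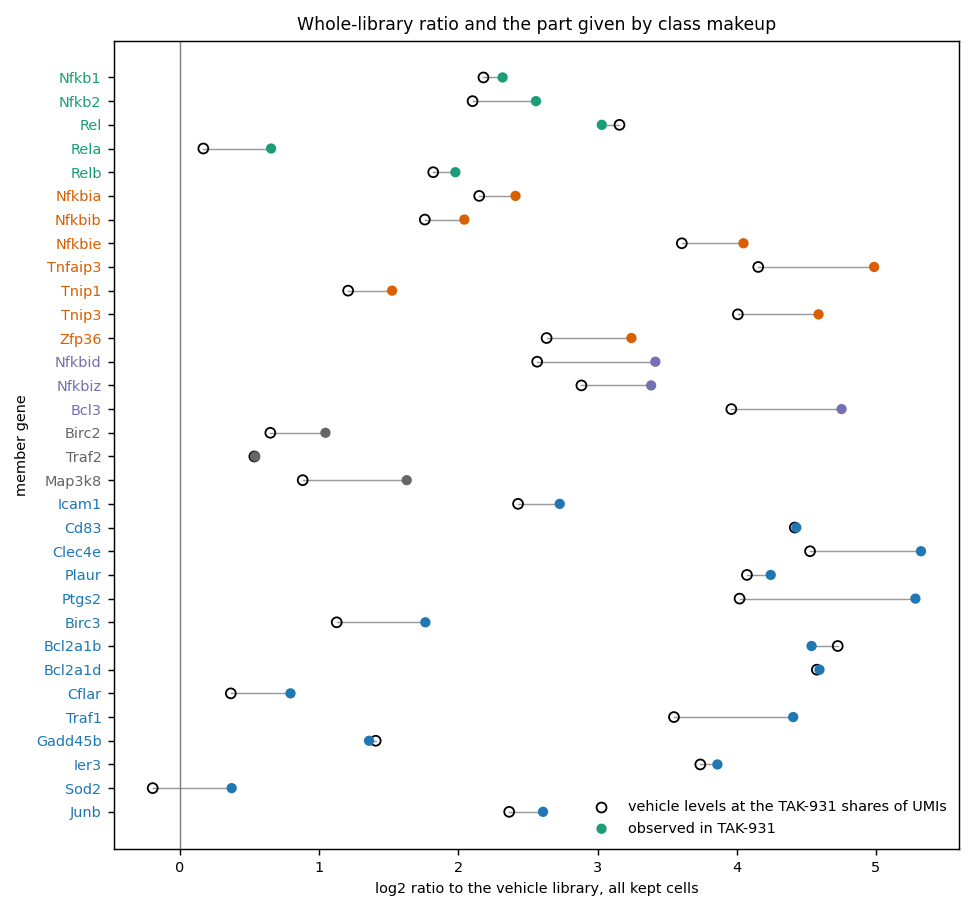
Log2 ratio of each member between the libraries over all kept cells (filled points, coloured by role: green subunits, orange feedback inhibitors, purple nuclear IkB proteins, grey signal proteins, blue effectors) and the ratio that vehicle class levels give at the TAK-931 shares of UMIs (open circles). The open circles sit close behind the filled points for most genes, with a median of 2.50 against 2.88, and the widest gap is that of Ptgs2, 1.26.

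The members were highest in different classes. Neutrophil-like barcodes, which fall below the filter on genes and are described further on, stand outside the orders in this and the following 3 paragraphs. In the TAK-931 library these barcodes lay above every class of at least 10 kept cells for 21 of 32 members, among them Nfkbia, Zfp36, Clec4e, Plaur, Ptgs2 and Bcl2a1b. Over classes of at least 10 kept cells, the monocyte/macrophage-like class was highest for 11 members, fibroblast-like cells for 5, NK-like and conventional dendritic-like cells for 4 each, T-like and mural-like cells for 3 each and endothelial-like cells for 2. For 16 of 32 members the interval of the highest class overlapped that of the next. These orders and the count of 21 compare cells of 1 library, carry no test and have no share of all features beside them. J558-like cells were lowest for most members, but Sod2, the mitochondrial superoxide dismutase, stood there at 187 and 174 CPM. Cflar, the caspase-8 inhibitor c-FLIP, also remained at 75.5 and 70.6 CPM in these cells.

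Among the subunits, Rel (c-Rel) differed most between classes. In the TAK-931 library it had 400 CPM in conventional dendritic-like cells (344 to 463) and 299.6 CPM in monocyte/macrophage-like cells (294 to 306), which do not overlap. It had 159.8 CPM in NK-like, 147 CPM in mural-like, 105 CPM in T-like, 82.6 CPM in endothelial-like, 56.2 CPM in fibroblast-like and 25.9 CPM in J558-like cells. Rela, the p65 subunit, had a narrower range, from 26.7 CPM in J558-like to 60.1 CPM in NK-like cells, where its interval overlapped that of mural-like cells (59.5 CPM). The mature dendritic-like cells, only 2 and 7, held 2025 and 1701 CPM of Rel. In the 7 cells Relb stood at 631 CPM, Nfkb2 at 326 CPM, the ubiquitin ligase Birc2 at 682 CPM, the adaptor Traf1 at 692 CPM and the maturation marker Cd83 at 774 CPM, each above the same gene in every class of at least 10 cells. In these 7 cells 1 cell gave 27.5% of the Rel and 26.3% of the Cd83 UMIs.

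The feedback inhibitors were spread over different classes. Among kept cells Nfkbia ran from 169 CPM in T-like to 1414 CPM in mural-like cells, and the interval of fibroblast-like cells (1264 CPM) overlapped that of mural-like cells. Tnfaip3 was instead highest in NK-like (307 CPM, 269 to 350) and T-like cells (276 CPM, 267 to 285), whose intervals overlapped, against 153 CPM in monocyte/macrophage-like cells. Zfp36, the tristetraprolin that destabilises cytokine mRNAs, was highest among kept cells in the monocyte/macrophage-like class at 680.2 CPM (671 to 689). Tnip1, an A20 partner, was highest in endothelial-like cells (67.7 CPM), and its relative Tnip3 in conventional dendritic-like cells (55.6 CPM). Nfkbib and Nfkbie, the IkB-beta and IkB-epsilon proteins, were highest in monocyte/macrophage-like cells at 89.0 and 57.3 CPM, with intervals that overlapped those of the next class. Of the nuclear IkB proteins, which act as cofactors on the DNA, Nfkbiz led in fibroblast-like cells (562 CPM) and Bcl3 and Nfkbid in monocyte/macrophage-like cells (126 and 32.3 CPM), where the Nfkbid interval overlapped that of conventional dendritic-like cells (22.2 CPM).

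Of the effectors, Clec4e and Plaur were highest among kept cells in the monocyte/macrophage-like class. Clec4e had 155 CPM there, with 24.3 CPM in the next class of kept cells, endothelial-like cells, against 2948 CPM in neutrophil-like barcodes. Plaur, the urokinase receptor, had 276 CPM there and 116 CPM in endothelial-like cells. Among kept cells Ptgs2 was highest in the fibroblast-like class (490.2 CPM) and next in monocyte/macrophage-like cells (161 CPM). The stress-inducible Ier3 and the AP-1 member Junb were likewise highest in fibroblast-like cells, at 1372 and 1958 CPM, although the Junb interval overlapped that of mural-like cells (1806 CPM). The anti-apoptotic genes Bcl2a1b and Bcl2a1d led among kept cells in the T-like class (298 and 149.9 CPM), with a Bcl2a1d interval that overlapped that of conventional dendritic-like cells (147 CPM). These 2 are near-identical copies, so the counting can split reads between them and their separate values are uncertain. In T-like cells of the TAK-931 library, 106 carried a Cd4 UMI without Cd8a or Cd8b1 and 512 the reverse. Their levels were 354 and 258 CPM for Tnfaip3, 229.5 and 101 CPM for Birc2, 193 and 84.0 CPM for Traf1 and 295 and 112 CPM for Nfkbia, so these 4 genes were higher in the Cd4 cells, which also held more monocyte/macrophage markers (924 and 409 CPM). The part of these markers was not tested. Ier3 went the other way, with 37.1 and 124 CPM.

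**Figure D2:**
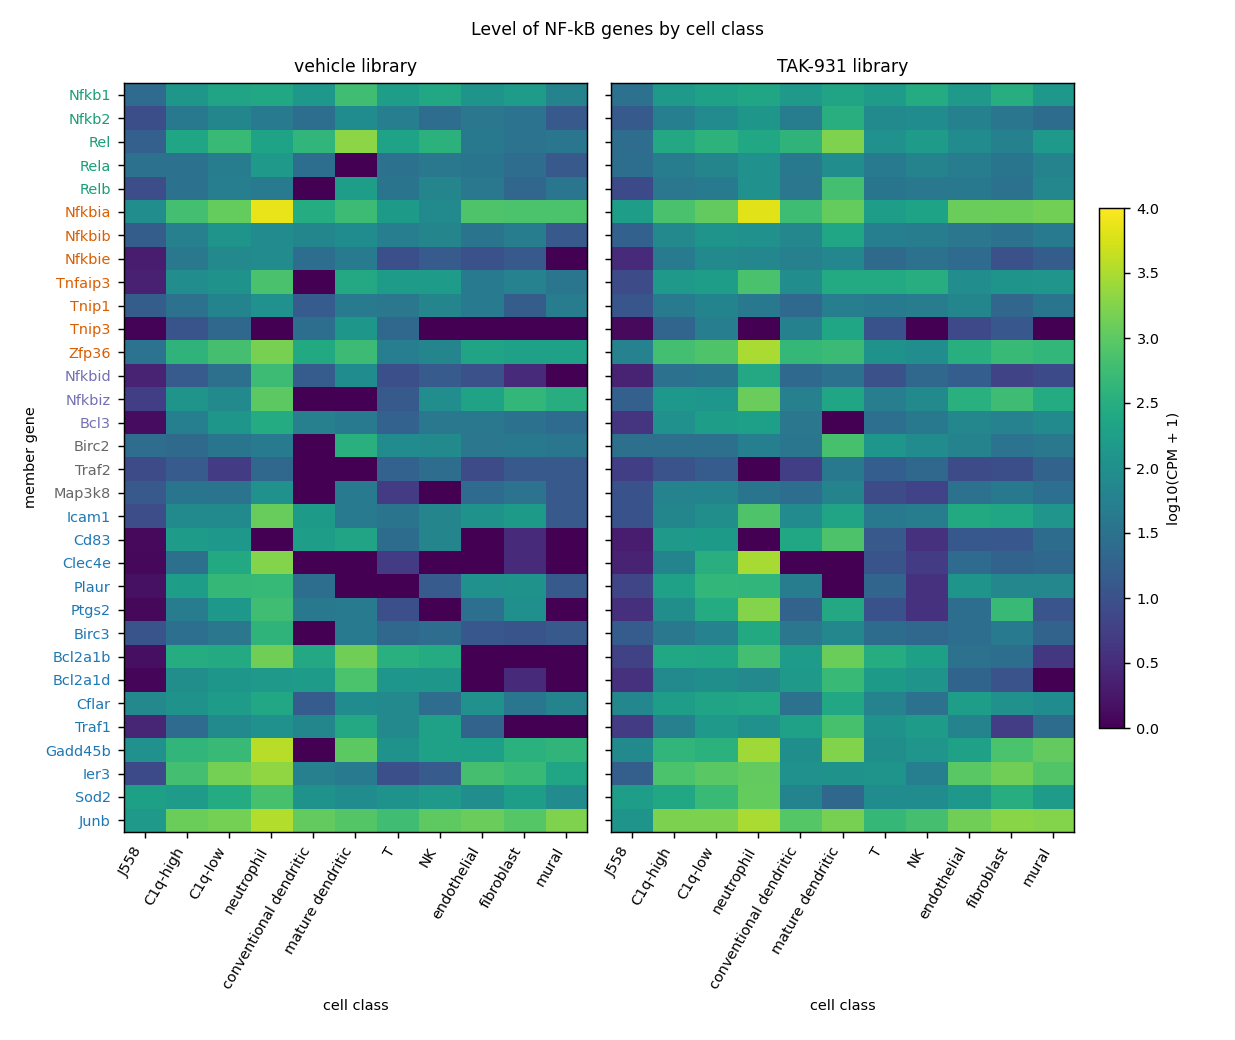
Level of each member, as log10 of CPM plus 1, in each class of the vehicle (left) and TAK-931 library (right), with gene names coloured by role. Neutrophil-like barcodes (over 500 genes) are brightest for Nfkbia, Zfp36, Junb, Clec4e and Gadd45b, the J558-like column of the TAK-931 panel is darkest for most members, and the mature dendritic-like column rests on 2 and 7 cells.

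Within the monocyte/macrophage-like class, where both libraries gave all 32 members enough UMIs, the differences were small and mostly upward. At least 2-fold higher in TAK-931 were 3 of 32 members, against 7.3% of 10245 features, and 0 were at least 2-fold lower, against 6.31%. The members' median log2 ratio was 0.31 and that of all features -0.03. The interval lay above 0 for 19 members and below 0 for 4, counts with no share of all features beside them. Scaling by the median ratio adds 0.10 to every log2 value of this class, which changes no 2-fold call but brings the small negative values of Ier3, Cd83, Rel and Icam1 to just above 0. Monocyte/macrophage markers summed to 7759 and 10932 CPM, and the C1q genes to 9663 and 7358 CPM. The part of this shift in the results below was not tested.

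The subunits differed little. Nfkb1, which encodes p50, had 154 and 159.9 CPM, and Rel had 308 and 299.6 CPM, both with ratio intervals that included 0. Rela was higher, at 35.0 and 53.4 CPM (log2 0.61, 0.31 to 0.93). Nfkb2 stood at 48.7 and 63.2 CPM (log2 0.38, 0.12 to 0.65) and its partner Relb at 36.5 and 40.1 CPM (0.14, -0.16 to 0.45).

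All 7 feedback inhibitors had a ratio above 0, with a median of 0.32. Nfkbia was near even at 771 and 841 CPM (log2 0.13, 0.06 to 0.19). Tnfaip3 had 95.5 and 153 CPM, 1.60-fold higher (log2 0.68, 0.49 to 0.87), and Zfp36 had 477 and 680.2 CPM (0.51, 0.43 to 0.60). Tnip3 was the only inhibitor past 2-fold, at 13.3 and 29.5 CPM from 35 and 985 UMIs (log2 1.15, 0.66 to 1.68). The other inhibitors, Nfkbib, Nfkbie and Tnip1, lay between log2 0.22 and 0.32. The 3 nuclear IkB proteins had the highest median of the role groups, 0.77, and none passed 2-fold. Bcl3 had 74.2 and 126 CPM (log2 0.77, 0.56 to 0.98) and Nfkbid 17.5 and 32.3 CPM (0.89, 0.46 to 1.35). Of the signal proteins, Map3k8, the Tpl2 kinase, had 35.0 and 61.1 CPM (0.80, 0.50 to 1.12), while Birc2 (0.14) and Traf2 (0.02) had intervals across 0.

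The 14 effectors did not move as one, with a median of 0.20. Ptgs2 had 70.7 CPM in the vehicle (60.9 to 81.7) and 161 CPM in the TAK-931 library (157 to 166), 2.28-fold higher. After each cell was thinned to 4000 UMIs, 34 of 209 vehicle cells (16.3%, 11.5 to 21.98) and 507 of 1998 TAK-931 cells (25.4%, 23.5 to 27.3) carried a Ptgs2 UMI. Unthinned, the shares were 24.4% and 44.2%, at median depths of 10362 and 14783 UMIs. In J558-like cells, which should lack the gene, the thinned shares were 0.0664% and 0.962%, at median depths of 42442 and 72254 UMIs before thinning. Traf1 was the other effector past 2-fold, at 39.9 and 85.9 CPM (log2 1.11, 0.82 to 1.40). Over the 10 alternatives the log2 ratio of Ptgs2 ran from 0.95 to 1.30 and that of Traf1 from 0.99 to 1.21, so both sit near the threshold. Sod2 (192 and 339 CPM) and Clec4e (96.6 and 155 CPM) were 1.76-fold and 1.61-fold higher. Another 4 members went the other way by less than 1.25-fold: Bcl2a1b at 291 and 239 CPM, Bcl2a1d at 104 and 86.5 CPM, the growth arrest gene Gadd45b at 449.9 and 400.04 CPM and Ier3 at 861 and 806 CPM. Cd83 and the adhesion molecule Icam1 were level, with log2 ratios of -0.05 and -0.01.

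**Figure D3:**
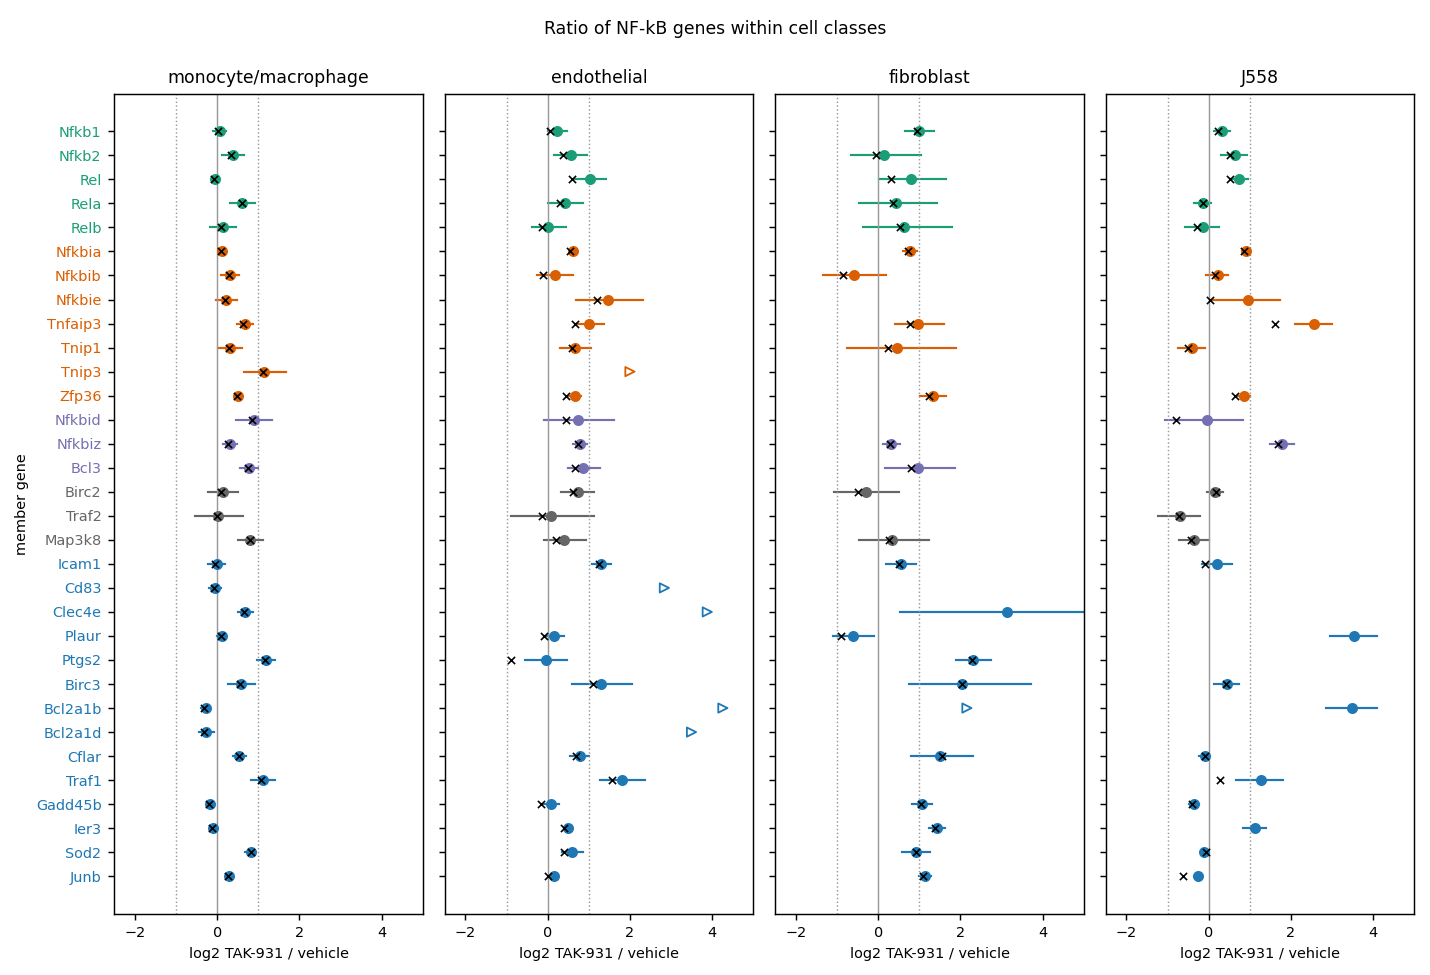
Log2 ratio of TAK-931 over vehicle for each member with at least 5 expected UMIs in the smaller sum, in 4 classes (points with 95% counting intervals, coloured by role). Open triangles are lower bounds against 0 vehicle UMIs, black crosses the value after free RNA was subtracted, dotted lines 2-fold, and the Clec4e interval in fibroblast-like cells runs beyond the axis. Monocyte/macrophage-like points sit near 0 (median 0.31), endothelial-like and fibroblast-like points further right (medians 0.70 and 0.92).

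The monocyte/macrophage-like class was split by a fixed cut into complement C1q-high cells (123 and 1130) and C1q-low cells (86 and 868). Within 2-fold of the cut lay 6 and 176 cells, and whether the subsets are 2 types was not tested. In each library 27 of 32 ratios of C1q-low over C1q-high cells lay above 0, a count with no share of all features beside it. At least 2-fold higher in C1q-low cells were 10 members among vehicle cells and 5 among TAK-931 cells, and all 5 were among the 10. All 32 had enough UMIs, and 6.82% and 7.03% of features were that much higher in C1q-low cells. In the other direction stood 1 member among vehicle cells, Traf2 with 3 UMIs in C1q-low cells (log2 -1.69, -4.06 to 0.02), and 0 among TAK-931 cells, against 15.6% and 9.1% of features. The 5 in both were Tnip3, Clec4e, Plaur, Ptgs2 and Traf1. Clec4e stood at 28.5 CPM in C1q-high and 273 CPM in C1q-low vehicle cells, 9.58-fold, and at 61.7 and 331 CPM in the TAK-931 library, 5.37-fold. Ptgs2 stood at 46.4 and 134 CPM in vehicle cells and 94.9 and 287 CPM in those of the TAK-931 library, 2.88-fold and 3.02-fold. Nfkbiz had the reverse order with intervals clear of 0 in both libraries, at 117 CPM in C1q-high and 79.1 CPM in C1q-low vehicle cells and 135 and 126 CPM in those of the TAK-931 library.

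Between libraries, few members passed 2-fold in either subset, and in C1q-low cells no larger a share than of all features. In C1q-high cells these were 4 of 32 members (Nfkbid, Clec4e, Ptgs2 and Traf1), against 7.41% of features, and Bcl3 lay just inside 2-fold at 52.7 and 105 CPM (log2 1.00). In C1q-low cells they were 3 of 32 (Tnip3, Traf2 and Ptgs2), against 9.91%, and the Traf2 ratio of 3.27 rests on 3 vehicle UMIs (log2 interval 0.14 to 4.00). Ier3 had 637 and 734 CPM in C1q-high cells and 1439 and 940 CPM in C1q-low cells, so its ratio lay above 0 in one subset (log2 0.20, 0.12 to 0.29) and below 0 in the other (-0.61, -0.71 to -0.52). Rel was level in C1q-high cells (log2 0.12, -0.02 to 0.26) and lower in C1q-low cells of the TAK-931 library, 495 and 382 CPM (-0.37, -0.53 to -0.21). The median log2 ratio was 0.35 in C1q-high cells (-0.11 over all features) and 0.24 in C1q-low cells (0.11 over all features). The difference between the subsets was not tested. Between the libraries, C1q-low cells also went from 226 to 116 CPM in the neutrophil markers, from 489.6 to 338 CPM in the conventional dendritic markers and from 53.2 to 263 CPM in the C1q genes. In C1q-high cells the same 3 lists went from 47.5 to 78.5, 182 to 226 and 13379 to 11131 CPM, and the part of these markers was not tested.

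**Figure D4:**
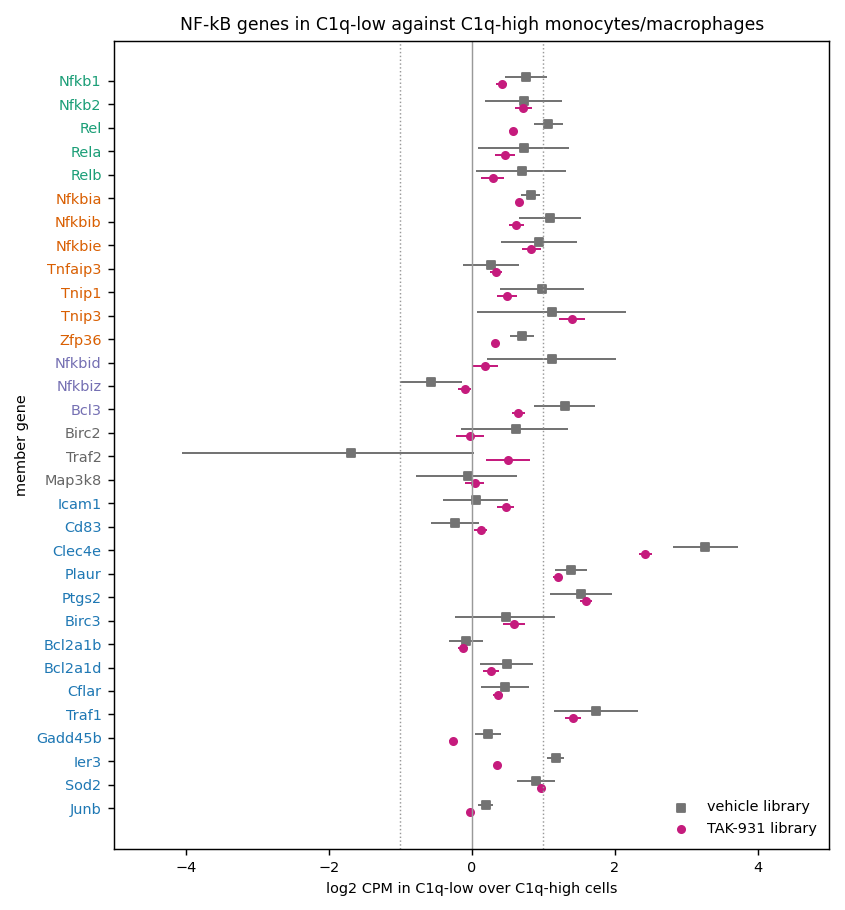
Log2 ratio of each member in C1q-low over C1q-high monocyte/macrophage-like cells, in the vehicle (grey squares) and TAK-931 library (pink circles), with 95% counting intervals and 2-fold as dotted lines. Clec4e lies furthest right in both libraries, and 27 of 32 members lie above 0 in each, a count with no share of all features beside it.

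In endothelial-like cells all 32 members had enough UMIs by their pooled level. At least 2-fold higher in TAK-931 were 11, against 10.1% of 11074 features, and 0 were at least 2-fold lower, against 9.73%. Of the 11, 5 had 0 vehicle UMIs and entered through their TAK-931 UMIs only, so these could not come out lower. The median log2 ratio was 0.70 over members and -0.12 over all features. Scaling by the median ratio adds 0.23 to each value and gives 14 members. Icam1, the ligand by which leukocytes adhere to endothelium, had 108 CPM in the vehicle (93.4 to 124) and 266 CPM in the TAK-931 library (251 to 282), 2.47-fold higher. In cells thinned to 4000 UMIs, 19 of 86 (22.1%, 13.9 to 32.3) and 101 of 212 (47.6%, 40.8 to 54.6) carried an Icam1 UMI, against 2.96% and 3.85% of J558-like cells. Unthinned, the endothelial-like shares were 45.3% and 68.9%, at median depths of 17585 and 14870 UMIs.

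The adaptor Traf1 had 17.6 and 61.4 CPM, 3.48-fold higher, and the ubiquitin ligase Birc3 had 11.02 and 26.9 CPM, 2.44-fold higher. Of the inhibitors, Nfkbie had 8.81 and 24.3 CPM (log2 1.46, 0.70 to 2.32), and Tnfaip3 45.2 and 91.1 CPM (1.01, 0.67 to 1.37). Nfkbia had 777 CPM in the vehicle and was 1.55-fold higher, and Nfkbiz had 203 and 351 CPM, 1.73-fold. Rel had 40.2 and 82.6 CPM (1.04, 0.67 to 1.42). Inhibitors and effectors of the pathway are thus both among the higher members in these cells. Intervals of 8 members, among them Relb, Plaur, Traf2 and Ptgs2, reached across 0, and 1 cell held 90.0% of the 50 vehicle Ptgs2 UMIs.

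Markers of myeloid cells moved with part of the endothelial difference. Tnip3, Cd83, Clec4e, Bcl2a1b and Bcl2a1d had 0 UMIs in the 1815516 vehicle UMIs of the class. Against a floor of 3 counts over the class they were 4.00-, 7.14-, 14.7-, 19.1- and 11.3-fold higher, at 6.61 to 31.6 CPM. In the same cells the C1q genes summed to 4.41 CPM in the vehicle and 194 CPM in the TAK-931 library, and the monocyte/macrophage markers to 312 and 863 CPM. Free RNA was put at 3.72% and 11.6%, and after its subtraction 8 members passed 2-fold. Rel (log2 0.59), Tnfaip3 (0.67) and Cd83 (0.46) then fell short, while Icam1 (1.25), Traf1 (1.57), Nfkbie (1.19) and Birc3 (1.09) stayed past it. Endothelial markers were 7418 and 4962 CPM, and the median mitochondrial share 4.56% and 7.44%, and their part in the result was not tested.

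Fibroblast-like cells were few, 16 and 48, and there 8 of 11 effectors with enough UMIs were at least 2-fold higher. Of 25 members with enough UMIs, 9 were at least 2-fold higher against 12.7% of 7471 features, and 0 at least 2-fold lower against 12% of features. The median log2 ratio was 0.92 over the members and -0.17 over all features, and scaling by the median ratio adds 0.34 and gives 15 members in place of 9. Ptgs2 had 99.3 CPM in the vehicle (73.5 to 131) and 490.2 CPM in the TAK-931 library (456 to 526), 4.93-fold higher. One cell gave 40.8% of the vehicle and 21.6% of the TAK-931 Ptgs2 UMIs, and without each library's top cell the log2 ratio was 2.61. Thinned to 4000 UMIs, 4 of 16 (25.0%, 7.27 to 52.4) and 24 of 48 cells (interval 35.2% to 64.8%) carried a Ptgs2 UMI, and these intervals overlap. Unthinned, the shares were 68.8% and 72.9%, at median depths of 28550.0 and 29835 UMIs.

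Ier3 had 509 and 1372 CPM (2.70-fold), Junb 884 and 1958 CPM (2.22-fold), Gadd45b 353 and 736 CPM (2.09-fold) and Cflar 36.5 and 103 CPM (2.84-fold). Zfp36 was the inhibitor past 2-fold, at 195 and 488 CPM. Birc3 rests on 5 and 66 UMIs (4.11-fold, log2 interval 0.74 to 3.71). Clec4e had 1 and 28 UMIs (8.71-fold, log2 interval 0.53 to 8.48), and Bcl2a1b 0 and 43 UMIs, 4.46-fold against a floor of 3 counts. After free RNA was subtracted both lay below 2-fold, at log2 0.68 and 0.58. The C1q genes summed to 2.03 CPM in the vehicle and 302 CPM in the TAK-931 fibroblast-like cells, the monocyte/macrophage markers to 333 and 614 CPM and the mural markers to 2222 and 349.5 CPM. Nfkb1 lay just under 2-fold, at 158 and 315 CPM (1.99-fold). Plaur was the member with an interval below 0, at 107 and 70.7 CPM (log2 -0.60, -1.09 to -0.10).

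In J558-like cells, the tumour cells of the model, most members were low and 6 of 26 with enough UMIs were at least 2-fold higher, against 5.08% of 11229 features. None (0) was at least 2-fold lower, against 3.99%. The members' median log2 ratio was 0.27 and that of all features -0.01. Nfkbia had 91.2 CPM in the vehicle (12171 UMIs) and 171 CPM in the TAK-931 library (1276 UMIs), 1.87-fold higher (log2 0.90, 0.82 to 0.99). Nfkbiz had 4.60 and 15.9 CPM, 3.46-fold higher, and 23.5% of the TAK-931 UMIs came from 1 cell, without which the log2 ratio was 1.44. Tnfaip3 had 1.30 and 7.62 CPM (5.85-fold). Nfkb2 (8.13 and 12.6 CPM), Rel (15.6 and 25.9 CPM) and Zfp36 (32.1 and 58.0 CPM) were 1.55- to 1.81-fold higher, while Rela, Relb, Birc2 and Cflar had intervals across 0. Intervals below 0 were those of Tnip1, Traf2, Gadd45b, Sod2 and Junb, each lower by 1.08- to 1.63-fold.

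Plaur (0.509 and 5.88 CPM), Bcl2a1b (0.442 and 4.95 CPM), Traf1 (1.73 and 4.15 CPM) and Ier3 (7.02 and 15.2 CPM) were also past 2-fold in J558-like cells. Their TAK-931 sums are 31 to 114 UMIs. The monocyte/macrophage markers summed to 18.0 CPM in vehicle and 137 CPM in TAK-931 J558-like cells, and the C1q genes to 7.27 and 68.6 CPM. There the T markers summed to 1.84 and 58.7 CPM and the NK markers to 2.70 and 27.0 CPM. The part of these markers in the members' values, Tnfaip3 among them, was not tested. After subtraction of free RNA, 3 of the 6 passed 2-fold: Tnfaip3 (log2 1.62), Nfkbiz (1.69) and Plaur, whose vehicle sum then fell to the floor. Traf1 was at 0.27, Ier3 turned to -3.46 with its TAK-931 sum at the floor, and Bcl2a1b had both sums at the floor. Nfkbia stayed at 0.87. TAK-931 J558-like cells had a median of 72254 UMIs, against 42442 in the vehicle.

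T-like cells were 14 in the vehicle, so few of their ratios are tight. Of 24 members with enough UMIs, 4 were at least 2-fold higher against 10.3% of 5085 features, and 1 at least 2-fold lower against 2.18%. The median log2 ratio was 0.25 over the members and 0.04 over all features. Tnfaip3 had 156 and 276 CPM (1.77-fold, log2 interval 0.35 to 1.33). Zfp36 had 50.6 and 107 CPM (log2 1.09), which was 0.58 after free RNA was subtracted and 0.08 with barcodes over 500 genes. Nfkbie and Nfkbiz rest on 2 and 3 vehicle UMIs, with ratios of 2.73 (log2 interval -0.41 to 4.50) and 3.98 (0.44 to 4.27). The Nfkbie ratio fell short of 2-fold with free RNA subtracted (log2 0.68) and without its top cell (0.70), and the log2 ratio of Nfkbiz was 0.08 with barcodes over 1000 genes and -0.18 with those over 500 genes. Ier3 had 2 vehicle UMIs and 1571 TAK-931 UMIs in 352 of 689 cells (13.9-fold, log2 interval 1.95 to 6.85). Over the 10 alternatives its log2 ratio ran from 2.21 to 4.61. Rel was the member past 2-fold lower, at 211 and 105 CPM, but 1 vehicle cell gave 58.0% of its 50 UMIs, and without it the log2 ratio was 0.06. The monocyte/macrophage markers summed to 169 CPM in vehicle and 578 CPM in TAK-931 T-like cells, and the C1q genes to 354 and 358 CPM. Free RNA was put at 0% in vehicle and 7.35% in TAK-931 T-like cells, so it was subtracted from the TAK-931 sums only.

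Neutrophil-like barcodes hold little RNA and were read from barcodes over 500 genes, 27 and 56 of them with 48339 and 170626 UMIs. They held the highest Nfkbia of any class, 7406 CPM (6659 to 8214) and 6687 CPM (6305 to 7087), with a ratio interval that included 0 (log2 -0.32 to 0.03). Of 22 members with enough UMIs, 3 were at least 2-fold higher against 16.1% of 1150 features and 2 at least 2-fold lower against 13.7%. Ptgs2 had 599.9 and 1793 CPM (2.99-fold) and Zfp36 1531 and 3159 CPM (2.06-fold). Nfkb2 had 2 and 22 UMIs (3.12-fold, log2 interval -0.38 to 4.77). Nfkbid, at 559 and 258 CPM, and Bcl2a1b, at 1365 and 645 CPM, were lower. The monocyte/macrophage markers summed to 1862 and 4108 CPM in these barcodes. Their median depth was 1616 and 2579.5 UMIs and their median mitochondrial share 2.52% and 6.05%, and the part of these shifts was not tested.

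Of 45 other genes of the pathway (ligands, receptors, adaptors and kinases), 30 were at least 2-fold higher and 4 at least 2-fold lower over all kept cells, against the 36.3% and 19.1% of features given above. Within classes, 2 of 40 were higher in monocyte/macrophage-like (7.3% of all features), 6 of 35 in endothelial-like (10.1%), 8 of 27 in fibroblast-like (12.7%), 5 of 32 in J558-like (5.08%), 1 of 19 in T-like cells (10.3%) and 4 of 12 in neutrophil-like barcodes (16.1%). At least 2-fold lower was 1 each in fibroblast-like (Tnfsf11, against 12% of all features), J558-like (Tlr4, 3.99%) and T-like cells (Il1b, 2.18%), and 0 in monocyte/macrophage-like (6.31%) and endothelial-like cells (9.73%) and neutrophil-like barcodes (13.7%). Tnf, the founding ligand, had 83.3 and 149 CPM in monocyte/macrophage-like cells (log2 0.84, 0.64 to 1.04), and Il1b had 537 and 361 CPM there (-0.57, -0.65 to -0.49), so these 2 ligands went opposite ways. In endothelial-like cells Tnf had 2.20 and 44.1 CPM and Il1b 0 and 53.6 CPM, beside the myeloid markers given for them above. In neutrophil-like barcodes Il1b had 3806 and 9471 CPM (log2 1.32, 1.09 to 1.54). Map3k14, the NIK kinase of the slower branch, had 9.51 and 14.2 CPM in monocyte/macrophage-like cells (0.58). Tnfrsf17, the plasma cell receptor BCMA, had 39.8 and 92.6 CPM in J558-like cells (log2 1.22, up to 1.33), and the lymphotoxin gene Ltb 2.07 and 15.1 CPM (2.87, 2.54 to 3.19). In the same cells the T markers summed to 1.84 and 58.7 CPM and the NK markers to 2.70 and 27.0 CPM. After free RNA was subtracted, 3 of the 5 pathway genes passed 2-fold in J558-like cells, with Ltb at 2.68 and Tnfrsf17 at 1.30.

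The allografts had been digested into single cells, and several members (Ier3, Junb, Zfp36, Nfkbiz) belong to the genes that handling is known to induce, so 14 further immediate early and heat shock genes were read beside them. In monocyte/macrophage-like cells 2 of 14 were at least 2-fold higher (7.3% of all features), Egr1 (80.2 and 195 CPM) and Klf6 (268 and 569 CPM), while Fos had 1047 and 1223 CPM and Jun 344 and 391 CPM. In endothelial-like cells 3 of 14 were (10.1%), Hspa1a (769 and 2561 CPM), Hspa1b (737 and 2035 CPM) and Hsph1 (74.9 and 215 CPM), with Fos level at 1164 and 1114 CPM and Jun at 1489 and 1077 CPM. In fibroblast-like cells Fos (1029.9 and 2846 CPM), Dusp1 (357 and 969 CPM) and Atf3 (116 and 299 CPM) were past 2-fold higher (3 of 14, against 12.7%), and Hsph1 (168 and 78.2 CPM) lower (1 of 14, against 12%). In J558-like cells 5 of 14 were past 2-fold higher (5.08%), with Fos at 95.2 and 209 CPM, while Jun had 321 and 191 CPM. After free RNA was subtracted 3 of the 5 passed: Fos, Egr1 and Hspa1a, whose vehicle sum then fell to the floor. Atf3 turned from log2 1.06 to -1.31, and Hspa1b was at the floor. In T-like cells 3 of 14 were past 2-fold higher (10.3%): Klf6 at 67.5 and 214 CPM (log2 1.66, 0.96 to 2.47), Jun with 3 vehicle UMIs (2.34, 0.79 to 4.62) and Atf3. Atf3 had 0 vehicle UMIs and was 2.13-fold higher against a floor of 3 counts, with a log2 interval from 0.79 upward. With free RNA subtracted Atf3 was at the floor, and 2 of the 3 passed. In neutrophil-like barcodes 2 of 9 with enough UMIs were past 2-fold higher (16.1%), Atf3 (848 and 2151 CPM) and Klf6 (952 and 2051 CPM). In the C1q-high and C1q-low subsets Fos had log2 ratios of 0.50 and -0.34, and Jun 0.21 and 0.21. The medians of the 14 genes there were 0.30 and 0.12. The part of handling in the members' values, Ier3 in these subsets among them, was not tested.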

How the data were processed

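The deposited matrices hold raw UMI counts per gene and barcode, made by the authors with Cell Ranger 6.0.0 and mm10 per the submitters' processing notes, whereas the methods name a human build. The members, gene lists and markers were chosen with earlier results of these data known. Barcodes were kept above 2000 genes and below 15% mitochondrial reads. A marker was on at 1 UMI or more per 10000. Of 10 lists of 6 to 8 markers, a cell took the class with the largest share on, if that share was at least 0.5 and 0.2 above the next. Other cells stayed unassigned, and no doublet caller was run. C1q-high cells had 20 or more C1q UMIs per 10000. Counts were added up within a class of a library and expressed as CPM. A gene was compared where its pooled level gave at least 5 expected UMIs in the smaller sum, and classes with at least 10 cells in each library. Past 2-fold is a rule of size, since 1 library per group allows no test. All 32 members may be named, and of the other lists at most 4 genes a class by size, with Tnf, Il1b, Tnfrsf17, Map3k14, Fos and Jun. Free RNA was the median level of other lineages' markers (at least 20 CPM in the library) in a class, taken against their level over the whole library. Promoters were read from RefSeq. Only the ratios and their intervals were tested on simulated counts with known folds. The software was python 3.11.15, numpy 2.4.6, scipy 1.17.1, pandas 2.3.3 and matplotlib 3.10.9.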

Additional observations from a re-analysis of the deposited data

Results flagged for a closer look

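Some members lay past 2-fold in opposite directions in different cell classes, and the difference between classes was not tested. The log2 ratio of Rel was -1.01 in T-like and 1.04 in endothelial-like cells, where the first rests on 1 vehicle cell and the second was 0.59 after free RNA was subtracted. The log2 ratio of Nfkbid was 1.23 in C1q-high cells and -1.12 in neutrophil-like barcodes. The log2 ratio of Bcl2a1b was 3.48 in J558-like cells, 4.26 in endothelial-like and 2.16 in fibroblast-like cells (the last 2 against a floor of 3 counts for 0 vehicle UMIs), and -1.08 in neutrophil-like barcodes. After free RNA was subtracted, its J558-like sums were both at the floor, the fibroblast-like value was 0.58 and the endothelial-like value 2.31. Neutrophil-like barcodes lie outside the main cell filter, and in them Zfp36 (1.05) and Ptgs2 (1.58) stood above the vehicle barcodes on the log2 scale.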

How the results depend on the processing

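Of 2316 alternative values for 235 ratios of single genes, 2128 were close to the reported value, 185 moved and 3 turned: Nfkbiz in T-like cells with barcodes over 500 genes (log2 -0.18), Ier3 in J558-like cells with free RNA subtracted (-3.46) and Rel in T-like cells without its top cell (0.064). The count of members higher in J558-like cells (6) was 3 with free RNA subtracted, 2 with at least 20 expected UMIs and 12 with 10 UMIs in both sums together, and 1 was lower with free RNA subtracted. In T-like cells 2 of the 4 were higher with free RNA subtracted and 2 with at least 20 expected UMIs. The 1 lower in T-like cells was 0 with barcodes over 500 genes, median-ratio scaling, the mean of each cell's CPM or no top cell, and 3 with 10 UMIs together. In fibroblast-like cells median-ratio scaling gave 15 in place of 9. The fibroblast count ran from 6 to 15 over all alternatives, the endothelial count (11) from 8 to 14, the C1q-high count (4) from 3 to 6 and the monocyte/macrophage count (3) from 2 to 3. In monocyte/macrophage-like cells the effector median (0.20) ran from 0.11 to 0.31 and the inhibitor median (0.32) from 0.24 to 0.42. With 1 library per group no replicate could be left out. No paired analysis was possible because each group has 1 library. The planned dendritic comparison was not run, since the vehicle library held 5 conventional and 2 mature dendritic-like cells, under the minimum of 10. The filters on low values and the scaling do not apply to the class in which a member was highest. Few UMIs limit the vehicle sums of the 27 neutrophil-like barcodes (48339 UMIs), 14 T-like cells (237085) and 16 fibroblast-like cells (493244).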
